A study of Homo sapiens with 6 samples.

Results

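Amino acid transporters are the membrane proteins through which cells take up and exchange the building blocks of protein. The 10 genes SLC7A11, SLC7A5, SLC3A2, SLC7A1, SLC38A1, SLC38A2, SLC1A4, SLC1A5, SLC43A1 and SLC6A9 were chosen by symbol, and all 10 were found among the 26255 genes of every sample. RNA was sequenced from 22RV1, a human castration-resistant prostate cancer (CRPC) cell line, in 3 samples given 10 nM bruceantin (BCT), a plant quassinoid, and 3 samples given the vehicle DMSO, each for 24 h. All samples were grown in RPMI 1640 with fetal bovine serum, a medium that supplies amino acids and androgens to both groups. Nothing in the labels says whether samples of a group came from separate cultures, so p-values measure only the spread between these samples, and a single cell line stands for the disease.

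Transporters work in families. SLC3A2 encodes CD98hc, a heavy chain that carries no amino acid itself but brings light chains such as LAT1 (SLC7A5) and xCT (SLC7A11) to the plasma membrane. Several of these genes are known targets of the transcription factor ATF4, which cells produce when amino acids are short or protein synthesis is disturbed and which binds a composite C/EBP-ATF element. Prostate cancer cells depend on such carriers for leucine and glutamine.

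The element was searched for as TGATGNAA, on both strands, in the promoter windows of RefSeq (GRCh38.p14), which reach from 250 bases before a transcription start to 50 bases after it. Of the 10 genes, 9 had a window and SLC7A11 had none. Matches were found in 5 of the 9 genes and in 5 of their 16 windows, against 3.62% of all 35116 windows. By gene, 4.46% of all genes of the table held a match. The 5 stretches are shown because matches to one motif stood in genes with fold changes of opposite sign, with the match in capitals and the rest in lower case.
SLC3A2, chr11:62881725-62881748, plus strand: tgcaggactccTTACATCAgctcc
SLC38A1, chr12:46266502-46266531, minus strand: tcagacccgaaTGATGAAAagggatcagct
SLC7A1, chr13:29595663-29595692, minus strand: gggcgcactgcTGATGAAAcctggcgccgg
SLC1A4, chr2:64989381-64989410, plus strand: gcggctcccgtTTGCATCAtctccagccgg
SLC1A5, chr19:46784893-46784922, minus strand: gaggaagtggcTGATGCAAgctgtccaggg
SLC38A1 and SLC7A1 carried the same 8 letters, TGATGAAA. The match of SLC1A4, TTGCATCA, is that of SLC1A5 read from the other strand. SLC3A2 rose with BCT and SLC38A1 was higher without a call, while SLC7A1, SLC1A4 and SLC1A5 were lower without a call in the deposited values. A match is a description of letters, not of a bound site. The share was 2.85% among 1299 genes called higher, 1.87% among 1658 called lower and 2.57% among 6498 tested and not called.

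Levels are given as FPKM, read fragments normalised for the length of a transcript and the mapped reads of a sample, which is the unit of the deposited files, so that levels of different genes can be compared per length. Fold changes (log2FC) are BCT minus DMSO on log2(FPKM + 0.1), a scale that shrinks the change of low genes, and were tested by limma in the 12729 genes whose mean reached 1 FPKM. A gene was called where its log2FC was beyond 0.85 in either direction with an adjusted p below 0.05 (Benjamini-Hochberg over all genes tested), and only called genes are said to have risen or fallen. FPKM holds no read counts. Among the lowest values the most common ratio between samples gave relative depths of 0.878 to 1 with DMSO and 1.05 to 1.13 with BCT. No count stands behind a value, and in bulk RNA fewer cells and less RNA per cell cannot be told apart. The labelled cell type showed in 7 of 8 luminal prostate markers at 1 FPKM or more in every sample, with a sum of 914.4 to 923.4 FPKM with DMSO and 1890 to 2049 FPKM with BCT, and KLK3 was the other, at 8.03 to 9.76 and 0.863 to 1.32 FPKM. All 3 basal and all 3 endothelial markers stayed under 1 FPKM. The 5 leukocyte markers summed to 2.52 to 3.58 FPKM with DMSO and 5.51 to 8.75 FPKM with BCT, with PTPRC at no more than 0.036 FPKM, and the 5 fibroblast markers to 2.54 to 2.69 and 5.75 to 7.07 FPKM. Most of the leukocyte sum was CD68, at a mean of 2.50 FPKM with DMSO and 6.39 with BCT. Most of the fibroblast sum was COL1A1, at 1.43 and 5.83 FPKM, while LUM was lower with BCT (1.01 and 0.574 FPKM). The part of these markers in the results was not tested.

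The question of the comparison was which transcripts BCT changed. Of the 10 transporters, 3 were called higher with BCT (SLC3A2, SLC7A11 and SLC38A2) and 2 were called lower (SLC43A1 and SLC6A9), while the other 5 stayed short of the fold change set for a call. With the samples rescaled to equal FPKM sums, 0 transporters were called lower and 4 higher, SLC38A1 being added at 1.13. Over all genes tested 31.6% were called, 13.9% higher and 17.8% lower, so the 5 of 10 stand against a background that is itself large. The adjusted p alone was passed by all 10 transporters, as by 82.1% of all genes tested, and in all 10 the BCT samples did not overlap the DMSO samples, as in 85.3% of all genes tested. The median log2 fold change was -0.53 for the 10 transporters and -0.04 for all genes tested, against 0.23 and 0.73 with equal FPKM sums and -0.15 and 0.35 with MIR6087 left out of the sum.

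**Figure D1:**
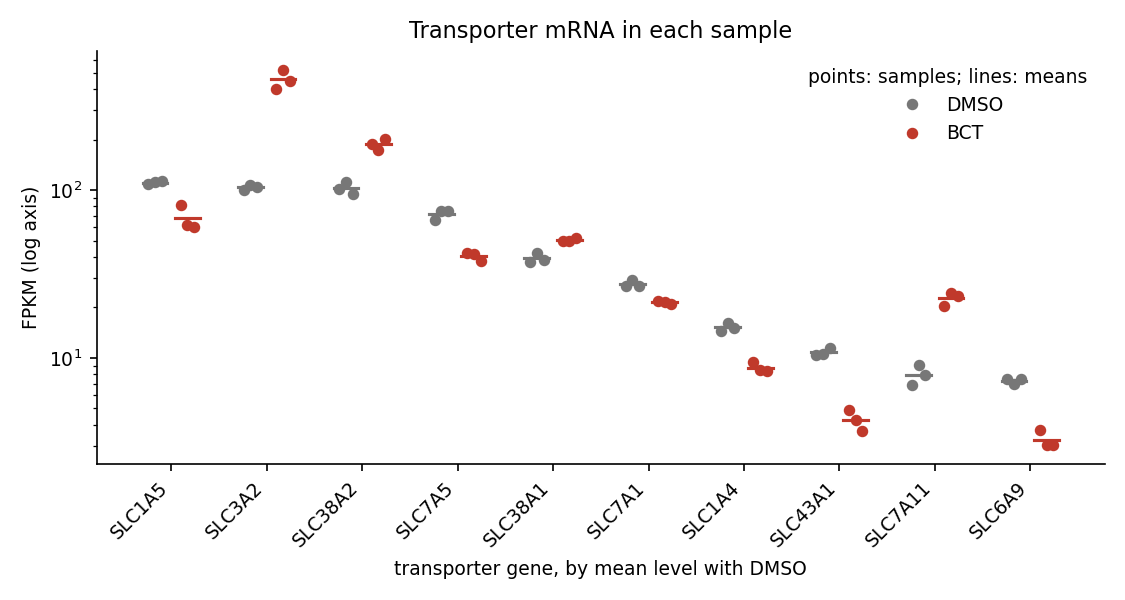
FPKM (log axis) of the 10 transporter genes in each of the 3 DMSO (grey) and 3 BCT (red) samples, with short lines at the group means, ordered by the mean level with DMSO. SLC3A2, SLC7A11, SLC38A2 and SLC38A1 lie higher with BCT and the other 6 lie lower, with no overlap between the groups in any of the 10.

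The heavy chain showed the largest change. SLC3A2, which encodes CD98hc and lies on chromosome 11 from 62623484 to 62656355 (plus strand; positions are those deposited on hg19, counted from 1), was at 100.7, 107.1 and 104.2 FPKM in the DMSO samples and at 399.7, 523.0 and 449.9 FPKM in the BCT samples. The lowest BCT sample was thus far above the highest DMSO sample. The mean rose from 104.0 ± 3.24 to 457.5 ± 62.0 FPKM (SD, n = 3 each), with a log2FC of 2.13, a standard error of 0.09, a 95% confidence interval of 1.92 to 2.34 and a limma adjusted p of 6.2e-07. Of all genes tested, 98.2% had a lower fold change. The spread between BCT samples was also wider, with a coefficient of variation of 13.6% against 3.12% with DMSO.

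SLC7A11 encodes xCT, the light chain that exports glutamate in exchange for cystine, the source of cysteine for glutathione. It lies on chromosome 4 from 138948577 to 139163503 (minus strand) and measured 6.94, 9.03 and 7.92 FPKM in the DMSO samples against 20.4, 24.3 and 23.3 FPKM in the BCT samples. Every BCT sample was more than 2 times the highest DMSO sample. The mean rose from 7.96 ± 1.04 to 22.7 ± 2.03 FPKM (SD, n = 3 each), with a log2FC of 1.5, a standard error of 0.10 and a limma adjusted p of 3.3e-06. Of all genes tested, 95.7% had a lower fold change. The deposited locus is shared with the antisense gene SLC7A11-AS1, whose reads cannot be told apart in an unstranded library and which was listed at 0.079 FPKM or less in every sample.

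LAT1 is the light chain that exchanges large neutral amino acids such as leucine. Its gene SLC7A5, on chromosome 16 from 87863629 to 87903100 (minus strand), measured 66.3, 75.2 and 75.6 FPKM in the DMSO samples against 42.1, 41.4 and 37.98 FPKM in the BCT samples. The mean was 72.3 ± 5.28 against 40.5 ± 2.21 FPKM (SD, n = 3 each), the log2FC being -0.83 with a 95% confidence interval from -0.99 to -0.68, which spans the threshold. With equal FPKM sums the log2FC was -0.067 (adjusted p = 0.711 by limma), and with MIR6087 left out of the sum it was -0.45. It was not called with all samples, and it was called without DMSO replicate 1 (-0.90), without BCT replicate 1 (-0.86) and without BCT replicate 2 (-0.85).

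SLC7A5 has close copies. SLC7A5P1, a pseudogene on chromosome 16 from 29624424 to 29625038 (minus strand), measured 3.28, 1.95 and 3.34 FPKM in the DMSO samples against 9.83, 13.5 and 12.9 FPKM in the BCT samples. It rose from 2.86 ± 0.786 to 12.1 ± 1.97 FPKM (SD, n = 3 each), with a log2FC of 2.07, a standard error of 0.21 and a limma adjusted p of 2.4e-05. SLC7A5P2 was at 0.654 ± 0.158 FPKM with DMSO and 1.81 ± 0.331 FPKM with BCT (SD, n = 3 each). It reached the mean of 1 FPKM needed for the test only through the BCT samples, so its values are given as a description.

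Read from the GRCh37 genome, the 615 listed bases of SLC7A5P1 aligned without a gap to bases 9 to 623 of a GENCODE transcript of SLC7A5 that is 4556 bases long, with 589 identical bases (95.8%) and 26 mismatches. SLC7A5P2 had 588 identical bases over an equal stretch. No window of 100 bases, the read length, was identical between SLC7A5 and SLC7A5P1, the fewest mismatches being 1, whereas 81 of 516 such windows were identical between SLC7A5 and SLC7A5P2. How the authors assigned such reads is not given in the sources used here, so the values of these 3 genes are uncertain to that extent. A stretch of 90 coding bases of exon 1 is shown as an example of how the parent and SLC7A5P1 differ, with the 6 differing bases in capitals.
SLC7A5, chr16:87902926-87903015 of hg19, minus strand: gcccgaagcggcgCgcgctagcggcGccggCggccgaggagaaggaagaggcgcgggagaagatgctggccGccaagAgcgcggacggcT
SLC7A5P1, chr16:29624859-29624948 of hg19, minus strand: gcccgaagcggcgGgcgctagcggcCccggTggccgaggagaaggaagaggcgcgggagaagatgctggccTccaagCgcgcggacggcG

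The chains of the heterodimers were compared by ratios, since a ratio within a sample does not depend on how samples were scaled. On the log2 scale the ratio of SLC7A5 to SLC3A2 was -0.60, -0.51 and -0.46 in the DMSO samples and -3.24, -3.66 and -3.56 in the BCT samples, a difference of -2.96 (standard error 0.13). Per length, there were 0.695 SLC7A5 transcripts to each SLC3A2 transcript with DMSO and 0.0892 with BCT. The ratio of SLC7A11 to SLC3A2 differed by -0.63 (standard error 0.10), since the light chain rose less than the heavy chain. That of SLC7A11 to SLC7A5 differed by 2.34 (standard error 0.12), from 0.111 to 0.560 transcripts of xCT to each of LAT1. In each of these 3 ratios the groups did not overlap, and each had an exact two-sided permutation p of 0.1, the smallest that 3 against 3 samples allow, or 0.12 adjusted over the 6 ratios compared.

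CD98hc also pairs with the light chains SLC7A6, SLC7A7, SLC7A8 and SLC7A10, and the set of 6 partners was put together after the values were seen. Summed over the 6 light chains, the level was 85.2 to 96.5 FPKM with DMSO and 72.6 to 77.5 FPKM with BCT, against 399.7 FPKM or more for the heavy chain with BCT. SLC3A2 was at 1.12 ± 0.0513 times the summed light chains with DMSO and at 6.14 ± 0.650 times with BCT (SD, n = 3 each). Within the light chain mRNA, SLC7A5 made up 78.1% ± 0.326 with DMSO and 54.4% ± 2.76 with BCT, and SLC7A11 made up 8.58% ± 0.699 and 30.5% ± 2.27 (SD, n = 3 each). SLC7A6 (y+LAT2, which exchanges cationic for neutral amino acids) rose from 4.43 ± 0.137 to 9.88 ± 0.636 FPKM. SLC7A8 (LAT2) fell from 7.63 ± 0.603 to 1.17 ± 0.156 FPKM, the log2FC being -2.61. SLC7A7 and SLC7A10 were under 1 FPKM on average and not tested.

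**Figure D2:**
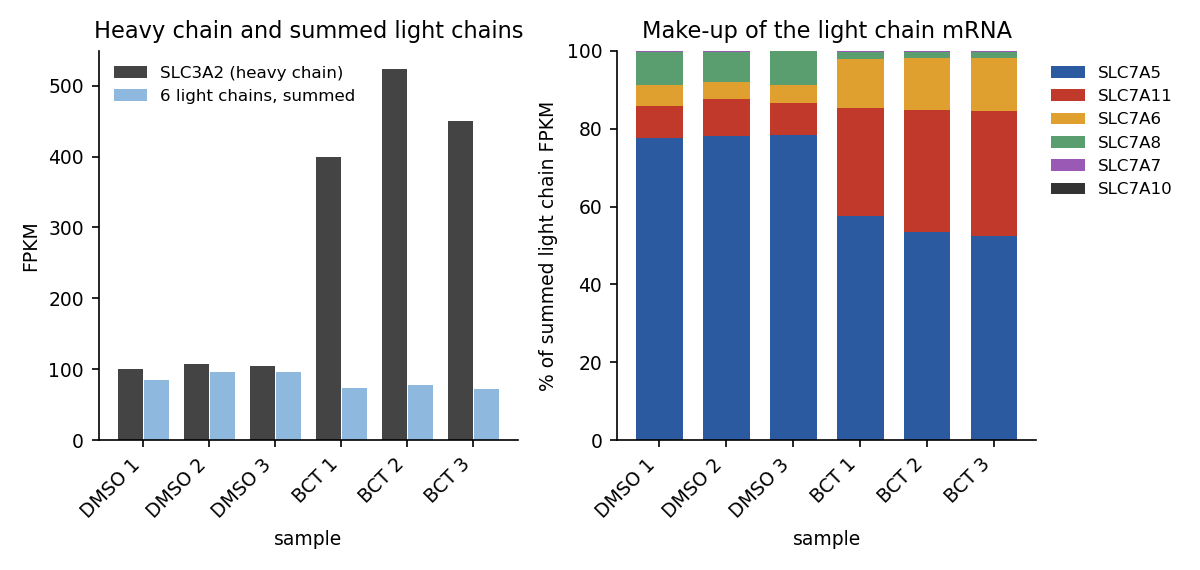
Left, FPKM of the heavy chain SLC3A2 (dark) and of its 6 light chains summed (light blue) in each sample; right, the percentage of the summed light chain FPKM from each light chain gene. SLC3A2 is 399.7 to 523.0 FPKM with BCT against a light chain sum of at most 77.5 FPKM, and the share of SLC7A11 goes from 8.58% to 30.5% on average.

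Among the carriers that work without CD98hc, SLC38A2 and SLC38A1 were higher, SLC38A1 without a call. Others of the SLC38A family went both ways, as given below. SLC38A2 (SNAT2), a sodium-coupled importer of small neutral amino acids on chromosome 12 from 46751971 to 46766645 (minus strand), measured 101.8, 111.6 and 95.2 FPKM in the DMSO samples against 189.4, 172.7 and 200.6 FPKM in the BCT samples. The mean rose from 102.9 ± 8.26 to 187.6 ± 14.0 FPKM (SD, n = 3 each), with a log2FC of 0.87, a standard error of 0.08 and a limma adjusted p of 1.2e-05. This is just past the threshold, and the call was lost without DMSO replicate 3 (0.81) and without BCT replicate 3 (0.82). Its neighbor SLC38A1 (SNAT1), on the same chromosome from 46576840 to 46663208, measured 37.5, 42.3 and 38.1 FPKM in the DMSO samples against 49.9, 49.5 and 52.1 FPKM in the BCT samples. With a log2FC of 0.36 (95% confidence interval 0.23 to 0.50) it did not reach the threshold. The log2 ratio of SLC38A2 to SLC38A1 differed by 0.50 (standard error 0.06) between the groups, which did not overlap, with the same exact permutation p of 0.1.

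The ASC pair, sodium-dependent exchangers of neutral amino acids, was lower in both genes in the deposited values. SLC1A5 (ASCT2), the main glutamine exchanger of many tumors, lies on chromosome 19 from 47278140 to 47291842 (minus strand) and measured 108.1, 111.9 and 112.9 FPKM in the DMSO samples against 81.8, 62.4 and 60.2 FPKM in the BCT samples. BCT replicate 1 stood between the other BCT samples and the DMSO samples. The log2FC was -0.72 (95% confidence interval -0.96 to -0.47), against 0.051 with equal FPKM sums, and the gene was called without BCT replicate 1 (-0.86). SLC1A4 (ASCT1), on chromosome 2 from 65215579 to 65251000 (plus strand), measured 14.5, 16.1 and 15.0 FPKM in the DMSO samples against 9.45, 8.50 and 8.32 FPKM in the BCT samples, the log2FC being -0.79 (95% confidence interval -0.95 to -0.63), against -0.029 with equal FPKM sums. Neither was called with all samples. The log2 ratio of SLC1A4 to SLC1A5 was -2.86 ± 0.0646 with DMSO and -2.93 ± 0.144 with BCT (SD, n = 3 each), a difference of -0.07 within the spread of the samples (exact two-sided permutation p = 0.6).

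The 2 transporters that fell are the lowest of the 10 with BCT. SLC43A1 encodes LAT3, a facilitative carrier of leucine and other branched-chain amino acids described from prostate cancer, and lies on chromosome 11 from 57252004 to 57283192 (minus strand). It measured 10.5, 10.6 and 11.5 FPKM in the DMSO samples against 4.87, 4.26 and 3.66 FPKM in the BCT samples, so that every BCT sample was below 5 FPKM. The mean was 10.9 ± 0.546 FPKM with DMSO and fell to 4.27 ± 0.606 FPKM (SD, n = 3 each), with a log2FC of -1.34, a standard error of 0.10 and a limma adjusted p of 5.5e-06. The call was lost with equal FPKM sums (-0.58). LAT1, without a call, and LAT3 were both lower in the deposited values, but unequally. The log2 ratio of SLC7A5 to SLC43A1 differed by 0.50 (standard error 0.09) between groups that did not overlap (exact two-sided permutation p = 0.1). Genes of the same families outside the 10 went both ways, with SLC43A2 (0.93) and SLC7A6 (1.14) called higher and SLC7A8 (-2.61) called lower.

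SLC6A9 (GlyT1), a sodium- and chloride-dependent importer of glycine on chromosome 1 from 44457280 to 44497164 (minus strand), measured 7.499, 6.97 and 7.52 FPKM in the DMSO samples against 3.73, 3.03 and 3.04 FPKM in the BCT samples. From a mean of 7.33 ± 0.314 FPKM it fell to 3.26 ± 0.402 FPKM (SD, n = 3 each), with a log2FC of -1.15, a standard error of 0.09 and a limma adjusted p of 7.9e-06. The call was lost with equal FPKM sums (-0.40), also with MIR6087 left out of the sum (-0.77). CCDC24, listed on the opposite strand, overlaps it and was not called, being at 8.79 to 9.28 FPKM with DMSO and 9.44 to 10.8 FPKM with BCT. Without strand, reads in the overlap cannot be told apart. SLC7A1 (CAT1), the importer of arginine and lysine on chromosome 13 from 30083551 to 30169825 (minus strand), differed least, from 26.7, 29.0 and 26.9 FPKM with DMSO to 22.0, 21.6 and 21.0 FPKM with BCT, the log2FC being -0.35 (95% confidence interval -0.48 to -0.23), short of the threshold and of the opposite sign with equal FPKM sums (0.41).

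**Figure D3:**
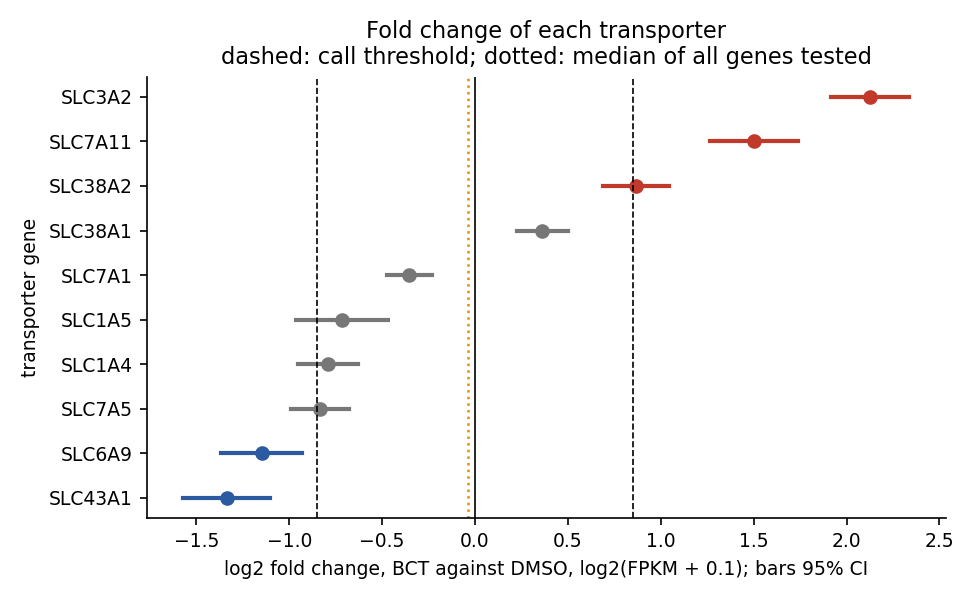
Log2 fold change of each transporter, BCT against DMSO, on log2(FPKM + 0.1), with 95% confidence intervals from limma; red genes were called higher, blue genes lower and grey genes not called, dashed lines mark the threshold of 0.85 and the dotted line the median of all genes tested (-0.04). Estimates run from -1.34 for SLC43A1 to 2.13 for SLC3A2, and the intervals of SLC7A5, SLC1A4, SLC1A5 and SLC38A2 cross a threshold line.

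The order of the levels changed with treatment. With DMSO, SLC1A5 (111.0 FPKM) was the highest, followed by SLC3A2 (104.0) and SLC38A2 (102.9), whose samples overlapped each other, and the lowest were SLC7A11 (7.96) and SLC6A9 (7.33), which also overlapped. With BCT, SLC3A2 came first at 457.5 FPKM, SLC38A2 followed at 187.6 and SLC1A5 was the third at 68.1. SLC7A11 went from ninth place to sixth, where its samples overlapped those of SLC7A1 (21.5 FPKM), and SLC43A1 overlapped SLC6A9 at the bottom. No other neighbors in either order overlapped. Apart from neighbors, SLC1A5 with DMSO (108.1 to 112.9 FPKM) overlapped SLC38A2, whose highest DMSO sample was at 111.6 FPKM. Summed over the 10 genes, the level was 480.5 to 519.9 FPKM with DMSO and 823.3 to 910.7 FPKM with BCT, and SLC3A2 alone made up 20.9% ± 0.235 of the sum with DMSO and 52.8% ± 4.46 with BCT (SD, n = 3 each). The share of SLC1A5 was 22.3% ± 0.678 and 7.93% ± 1.74, while SLC38A2 held 20.6% ± 1.22 and 21.8% ± 2.43.

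BCT replicate 1 lay nearest to the DMSO mean in 8 of the 10 transporters, SLC38A1 and SLC38A2 being the others. Over all genes tested its correlation with the DMSO samples was 0.892 to 0.896, against 0.851 to 0.857 for the other BCT samples, a correlation across genes, which are not independent replicates. Without it, the log2FC was 2.22 for SLC3A2 and 1.58 for SLC7A11, and 4 transporters were called lower in place of 2, SLC7A5 and SLC1A5 being added.

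The scaling of the samples bears on the direction of some members. MIR6087 alone made up 43.5% to 55.3% of the FPKM sum with DMSO and 31.7% to 32.5% with BCT. The values were used as deposited, a choice that the share of MIR6087 does not settle, and which scaling is right was not tested. Rescaling every sample to an equal sum moved the median log2FC over all genes to 0.73 and turned the calls from 2263 lower and 1764 higher to 657 lower and 5734 higher. Rescaling without MIR6087 moved it to 0.35, with 1192 lower and 3410 higher. Rescaling by the median ratio between samples, which centers the typical gene by construction, moved it to -0.0002, with 2123 lower and 1895 higher. The same transporters were then called as in the deposited values, 3 higher and 2 lower, with SLC7A1 at -0.32 and SLC1A5 at -0.68. Under all 4 scalings tried, SLC3A2, SLC7A11, SLC38A2 and SLC38A1 had positive fold changes and SLC43A1, SLC6A9, SLC7A5 and SLC1A4 negative ones, of which SLC7A5 (-0.067, adjusted p = 0.711 by limma) and SLC1A4 (-0.029, adjusted p = 0.874) were close to 0 with equal sums, while SLC7A1 and SLC1A5 changed sign under equal sums (0.41 and 0.051), SLC7A1 also without MIR6087 (0.032). Rescaling shifts all genes nearly alike, so a distance from the median of all genes is fixed by construction: in the deposited values it was 2.17 for SLC3A2 and -0.80 for SLC7A5.

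**Figure D4:**
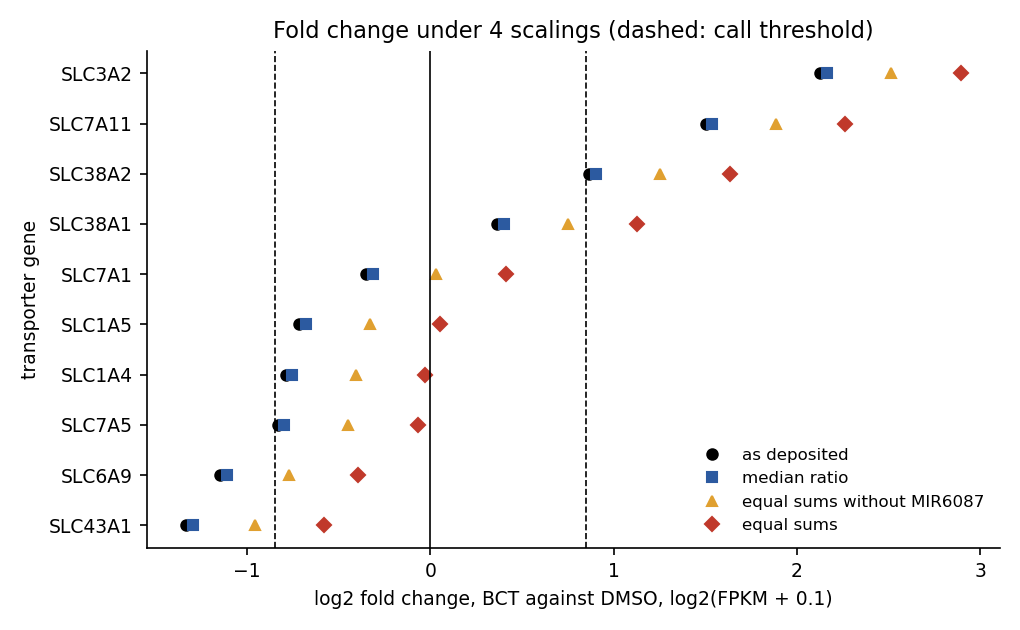
Log2 fold change of each transporter, BCT against DMSO, as deposited (black) and after 3 rescalings of the samples, with dashed lines at the call threshold of 0.85. SLC3A2 and SLC7A11 stay past the threshold under all 4, SLC43A1 moves from -1.34 to -0.58 with equal sums, and SLC7A1 and SLC1A5 cross 0.

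Other genes of amino acid transport were taken from lists and described by counts. Genes beyond the most changed pair in each direction of a list were named after their values were seen. Over the 8 lists together, 9 genes were called higher and 27 lower as deposited, against 24 and 7 with equal FPKM sums, so the directions given are those of the deposited values. Each list's count is to be read against the 13.9% called higher and 17.8% called lower over all genes tested. Of 35 other plasma membrane transporters, 12 were tested, of which 3 were called higher and 5 lower, with a median log2FC of -0.62. Besides SLC7A6, the higher ones were SLC43A2 (LAT4), at 2.16 ± 0.133 with DMSO and 4.24 ± 0.639 FPKM with BCT, and SLC38A6, at 3.59 ± 0.342 and 6.77 ± 0.794 FPKM (SD, n = 3 each). Besides SLC7A8, the lower ones were SLC1A1 (EAAT3, a glutamate and cysteine importer), which fell from 11.6 ± 0.514 to 3.29 ± 0.708 FPKM, SLC6A15 (-1.60), SLC38A4 (-1.42) and SLC6A17 (-1.16). SLC38A4 and SLC6A17 were under 1 FPKM with BCT (0.719 and 0.936 on average) and entered the test only through their DMSO values, so their calls are no more than a description. SLC16A10, a carrier of aromatic amino acids, was under the minimum and not tested, at 1.28 to 1.78 FPKM with DMSO and 0.179 to 0.238 FPKM with BCT.

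Carriers inside the cell were counted in the same way. Of 8 lysosomal transporters 7 were tested and 1 was called, SLC38A9, an arginine-sensing transporter of the lysosome, which fell from 4.35 ± 0.207 to 2.21 ± 0.131 FPKM (SD, n = 3 each). Of 11 mitochondrial carriers 9 were tested and 3 were called lower and 0 higher, where 31.6% of all genes tested were called, namely SLC25A29 (basic amino acids, -1.37), SLC25A22 (glutamate, -1.23) and SLC25A15 (ornithine, -1.20). The median was -0.34 for the lysosomal and -0.66 for the mitochondrial genes. These directions are those of the deposited values: rescaled to equal FPKM sums, each of the 2 lists had 0 genes called lower and 1 higher. The call of SLC38A9 was also lost with a pseudocount of 1.

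Among enzymes that use what these transporters carry, all 6 tested genes of branched-chain amino acid breakdown had negative log2 fold changes in the deposited values, with a median of -1.26. Of the 6, 5 were called lower, where 17.8% of all genes tested were, against 2 with equal FPKM sums and 3 with MIR6087 left out of the sum. Among them, BCAT2, the mitochondrial aminotransferase, fell from 91.4 ± 2.25 to 23.6 ± 2.79 FPKM and BCKDHB, a subunit of the branched-chain keto acid dehydrogenase, from 18.1 ± 1.38 to 3.29 ± 0.942 FPKM (SD, n = 3 each). Of 13 glutamine and glutamate enzymes 5 were called lower and 0 higher (median -0.73), against 0 lower and 1 higher with equal FPKM sums and 31.6% called over all genes tested. The most changed were GLUD1, glutamate dehydrogenase, at 164.9 ± 10.2 and 82.6 ± 7.11 FPKM (SD, n = 3 each) and GLS2, a glutaminase, at 16.3 ± 0.483 and 8.52 ± 1.23 FPKM.

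Genes of cystine use and glutathione were split, with 2 of the 10 tested called higher and 5 lower (median -0.77). Over all genes tested 13.9% were called higher and 17.8% lower. Rescaled to equal FPKM sums, 4 genes of this list were called higher and 1 lower, so the falls given here are those of the deposited values. CHAC1, which breaks glutathione down, rose from 6.32 ± 0.991 to 36.9 ± 5.06 FPKM and CHAC2, a related enzyme, from 4.52 ± 0.615 to 8.90 ± 0.842 FPKM (SD, n = 3 each). GCLC, the catalytic subunit of the first step of glutathione synthesis, fell from 37.6 ± 1.72 to 15.6 ± 1.84 FPKM, and GGCT, which acts further along the breakdown of glutathione, fell by 2.06 on the log2 scale. Of the 6 sensors that report amino acids to mTORC1, SESN2 (leucine) rose by 1.59 on the log2 scale, and GATSL3 (CASTOR1, arginine) and GATSL2 fell by 1.60 and 1.03. Of these sensors 4 were called higher and 1 lower with equal FPKM sums.

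Of 14 regulators known to act on transporter genes or upstream of them, 3 were called higher and 1 lower (median 0.37), where 31.6% of all genes tested were called, and with equal FPKM sums 10 were called higher. ATF3, a stress-induced factor, rose by 3.13 on the log2 scale, DDIT3 (CHOP) by 1.92, and ATF4 from 527.6 ± 11.9 to 1721 ± 146.9 FPKM, the log2FC being 1.70 (SD, n = 3 each). MYC, a known activator of SLC1A5 and SLC7A5, fell from 121.9 ± 6.97 to 27.0 ± 3.90 FPKM. NFE2L2 (NRF2), a known activator of SLC7A11, was at 21.3 to 22.5 FPKM with DMSO and 22.7 to 24.9 FPKM with BCT and was not called. These are mRNA levels and not activities of the factors, and the part of any regulator in the transporter levels was not tested.

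**Figure D5:**
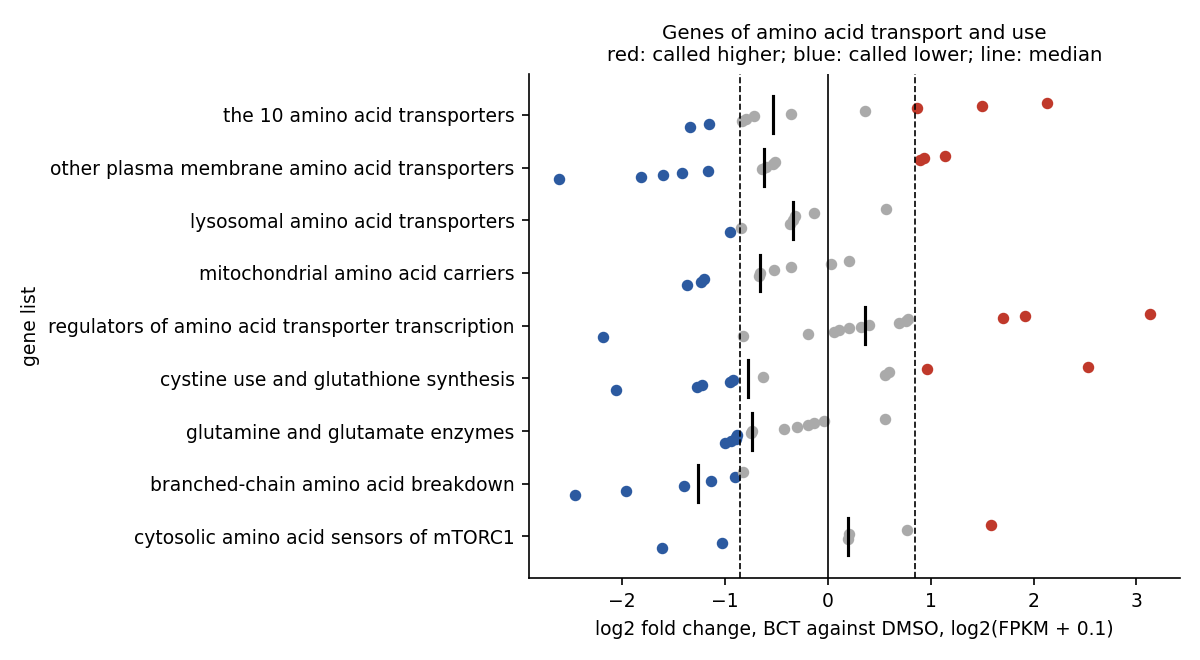
Log2 fold change, BCT against DMSO, of every tested gene of the 10 transporters and of 8 gene lists of amino acid transport and use; red points were called higher, blue points lower and grey points not called, black lines mark list medians and dashed lines the threshold of 0.85. The medians run from -1.26 for branched-chain amino acid breakdown to 0.37 for the regulators.

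Likeness of pattern was measured as the Euclidean distance of log2(FPKM + 0.1), centered on each gene's mean, over the 6 samples, for the 5 transporters called. The nearest to SLC7A11 were LOC103091866 (distance 0.123), CSGALNACT1 (0.138) and TEP1 (0.141). The nearest to SLC3A2 was CIDECP (0.0841), at 7.04 ± 0.349 with DMSO and 31.9 ± 5.06 FPKM with BCT (SD, n = 3 each). SLC38A2 was nearest to SOCS4 (0.0827), SLC43A1 to KIF12 (0.0606) and SLC6A9 to TRUB2 (0.0475). With 2 groups of samples such distances mostly rank genes of a similar fold change.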

How the data were processed

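RNA of 22RV1 cells (DMSO or 10 nM BCT, 24 h, 3 samples each) was sequenced as paired reads of 100 bases from TruSeq v2 libraries. The authors trimmed reads with Trimmomatic (0.38 in the submitters' processing notes) and aligned them to hg19 with HISAT2. Their paper names StringTie for assembly, with levels calculated as FPKM, and FPKM were deposited for each gene. The notes also list HTSeq and CASAVA but not StringTie, so which tool gave the deposited FPKM is not settled. The annotation is not given in the sources used here. FPKM gives no counts, so no count test, interval or floor was possible.

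All else was computed here: limma 3.58.1 in R 4.3.3, with moderated variances following a trend in the mean, on log2(FPKM + 0.1), without rescaling, tested on simulated data; exact permutation tests (scipy 1.17.1) of 6 within-sample ratios; and motif and pseudogene comparisons with the reference. The fold change threshold is the study's; its text gives false discovery rates of both 0.05 and 0.01, and 0.05 was used, with 0.01 as an alternative.

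The members and lists were chosen with earlier results of these data known. Named are the 10 transporters, the copies of SLC7A5 and the antisense gene of SLC7A11, up to 2 called genes per list and direction, and the nearest genes by pattern. SLC6A15, SLC38A4, SLC6A17, SLC38A6, SLC16A10, SLC25A15, ATF4, NFE2L2 and the cell type markers given singly fall outside this rule and were named after their values were seen. The 1 added to each start made it equal a GENCODE (GRCh37) transcript start in 7961 of 22422 genes, against 857 without it. Alternatives covered the pseudocount, filter, scaling, FDR, trend, replicate block and each sample left out.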

Additional observations from a re-analysis of the deposited data

How the results depend on the processing

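Of 150 values of the 10 transporters under 15 alternatives, 137 had the sign and the call of the main result, 5 lost a call, 5 gained one and 3 changed sign, and SLC3A2 and SLC7A11 were called higher under all 15. The filter, FDR, trend and replicate block settings leave each log2FC unchanged by construction, so their agreement in sign was fixed in advance and the 137 overstates stability. All 3 changes of sign came with equal FPKM sums, with MIR6087 kept in or left out. SLC1A4, not called under any, went from -0.79 to -0.029 with equal FPKM sums and to -0.41 with MIR6087 left out. With equal FPKM sums, SLC7A1 was at 0.41, SLC1A5 at 0.051, SLC43A1 at -0.58, SLC6A9 at -0.40 and SLC38A1 at 1.13 on the log2 scale; 0 transporters were called lower, 6391 genes were called in all (657 lower, 5734 higher), and the lists had 7 lower and 24 higher against 27 and 9. Without MIR6087 in the sum, SLC7A1 was at 0.032 and SLC6A9 at -0.77, 1 transporter was called lower, 1192 genes were called lower and 3410 higher, and the lists had 12 lower and 17 higher. With no filter 2657 genes were called higher, and 1150 where the mean had to reach 5 FPKM, since more or fewer genes were tested. With one sample left out, SLC7A5 ranged from -0.90 to -0.79, SLC38A2 from 0.81 to 0.93, SLC1A5 from -0.86 to -0.63 and the ratio of SLC1A4 to SLC1A5 from -0.12 to 0.0086, and 2 to 4 transporters were called lower. Of 240 counts for single lists, 41 moved by more than 1.5 times.

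The labels number the replicates but do not say whether same-numbered samples are pairs. Deviations from the group means correlated at 0.116, 0.033 and 0.034 between same-numbered samples. DMSO replicates 1 and 3 correlated best with their own number and DMSO replicate 2 did not. Correlations this weak, over 3 samples per group, cannot decide the question, and the samples were not treated as pairs. With the replicate block, 4033 genes were called in place of 4027, and 3 transporters were called higher and 2 lower, as without it.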
